A study of Mus musculus with 16 samples.

Results

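Endothelial cells (EC) rich in MHC class II were 663 of the 9036 lung cells deposited, from mice at 4 stages of tumour growth and spread. A cell was counted as class II-rich if Cd74, H2-Aa, H2-Ab1 and H2-Eb1 together took at least 1.0% of its unique molecular identifiers (UMIs, each standing for 1 captured transcript) and if it held a UMI in at least 2 of the endothelial genes Cdh5, Pecam1 and Cldn5. The 7598 other cells with 2 of those 3 endothelial genes are called other EC. The cells were chosen by the measured levels of these 4 class II genes and 3 endothelial genes, so those levels are a description and carry no test.

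At d0 the mice were wild-type, d15 fell during growth of the primary tumour, d22 came after its surgical removal, and by d36 the animals bore metastases. All mice were C57BL/6N females, and the tumour was grown from Lewis lung carcinoma (LLC) cells, a mouse lung carcinoma line, placed under the skin. Lung EC were sorted by flow cytometry and sequenced with 10x Genomics 3′ chemistry, which reads the 3′ ends of transcripts. The labels give 4 libraries for each day and no number of mice, and the names of the cells give the day without the library. Each day was therefore 1 pooled sample and no difference between days could be tested. The condition of a day cannot be told apart from its preparation. The sums over all members of a day held 979501, 70040, 4211330 and 94648 UMIs in the order of the days, against 6077633 to 23099559 UMIs in the sums over other EC, so values of d15 and d36 members rest on far fewer transcripts.

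MHC class II molecules present peptides to CD4+ T cells. H2-Aa and H2-Ab1 encode the chains of I-A, H2-Eb1 encodes the beta chain of I-E, and Cd74 encodes the invariant chain that fills the groove until H2-DM, built from H2-DMa and H2-DMb1, exchanges its remnant for a peptide. Dendritic cells, B cells and macrophages are the classical class II cells, while lung capillary endothelium also carries class II, and the coactivator Ciita, inducible by interferon-gamma, switches the whole set on. C57BL/6 mice are known to lack a working I-E alpha chain, so H2-Eb1 transcript is not I-E on the surface.

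The promoters of H2-Aa, H2-Eb1 and H2-DMb1 are shown because H2-Aa and H2-Eb1 helped choose the cells and H2-DMb1 followed them without being part of the rule. Each window runs from 250 bases before to 50 after the start site in RefSeq (GRCm38.p6), with H2-Aa at chr17:34287774-34288073 on the minus strand, H2-Eb1 at chr17:34305617-34305916 and H2-DMb1 at chr17:34152941-34153240 on the plus strand, all written 5′ to 3′ along the gene. Capitals mark the X box, searched as AAC, any 2 bases and ATGATG, and the Y box, searched as GATTGG, both on either strand and not overlapping here.
H2-Aa: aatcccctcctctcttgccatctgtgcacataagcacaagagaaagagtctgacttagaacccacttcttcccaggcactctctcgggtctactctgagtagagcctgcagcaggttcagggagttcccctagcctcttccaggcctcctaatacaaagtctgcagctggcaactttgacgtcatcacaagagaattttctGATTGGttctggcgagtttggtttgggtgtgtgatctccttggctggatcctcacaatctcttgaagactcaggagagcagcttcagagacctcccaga
H2-Eb1: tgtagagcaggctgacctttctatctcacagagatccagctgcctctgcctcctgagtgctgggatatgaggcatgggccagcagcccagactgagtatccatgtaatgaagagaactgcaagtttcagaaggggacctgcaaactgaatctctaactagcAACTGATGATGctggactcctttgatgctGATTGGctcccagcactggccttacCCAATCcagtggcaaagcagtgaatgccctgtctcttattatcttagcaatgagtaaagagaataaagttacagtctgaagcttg
H2-DMb1: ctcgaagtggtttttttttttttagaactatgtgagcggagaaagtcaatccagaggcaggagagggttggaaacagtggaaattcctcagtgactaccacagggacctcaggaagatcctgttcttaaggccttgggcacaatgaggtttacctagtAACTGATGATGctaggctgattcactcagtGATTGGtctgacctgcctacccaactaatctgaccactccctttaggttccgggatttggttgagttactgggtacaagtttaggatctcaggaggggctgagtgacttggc
The X and Y boxes are the textbook elements through which Ciita acts. In H2-Eb1 the X box began 89 bases and the Y box 60 bases before the start site, with 18 bases between them, and a second Y box was matched on the other strand. In H2-DMb1 they began 92 and 62 bases before it, with 19 bases between them. H2-Aa held a Y box 49 bases before the start site and no match to these X box letters. Of 32851 promoter windows of the same length, 16.1% held the Y box, 0.137% the X box and 0.0335%, or 11 windows, both, and those of H2-DMb2 and H2-Ob were also among the windows with both. Of the windows of H2-DMa, 1 held neither and 1 held a Y box only. The letters searched were set after these windows had been read, and a match describes the letters and says nothing about binding.

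Class II-rich EC were most frequent after tumour resection. They made up 119 of 2571 EC at d0 (4.63%, exact 95% interval 3.85 to 5.51%), 14 of 1291 at d15 (1.08%, 0.594 to 1.81%), 510 of 3086 at d22 (16.5%, 15.2 to 17.9%) and 20 of 1313 at d36 (1.52%, 0.933 to 2.34%). The intervals are Clopper-Pearson intervals and cover counting error only. The share was highest at d22 and lower at d15 and d36 than at d0, and the intervals of d15 and d36 overlap. Cells were deeper at d0 and d22, with a median of 7834 and 7796.5 UMIs per EC, against 4750 at d15 and 4072 at d36. With every cell thinned to 1200 UMIs before the rule was applied, the shares were 5.79%, 1.054%, 16.4% and 1.87% in the order of the days. At a threshold of 0.5% of UMIs they were 13.9%, 5.11%, 28.6% and 7.31% in the order of the days, and at 2.0% they were 0.622%, 0% (0 of 1291, an upper limit of 0.285%), 4.93% and 0.228%.

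**Figure D1:**
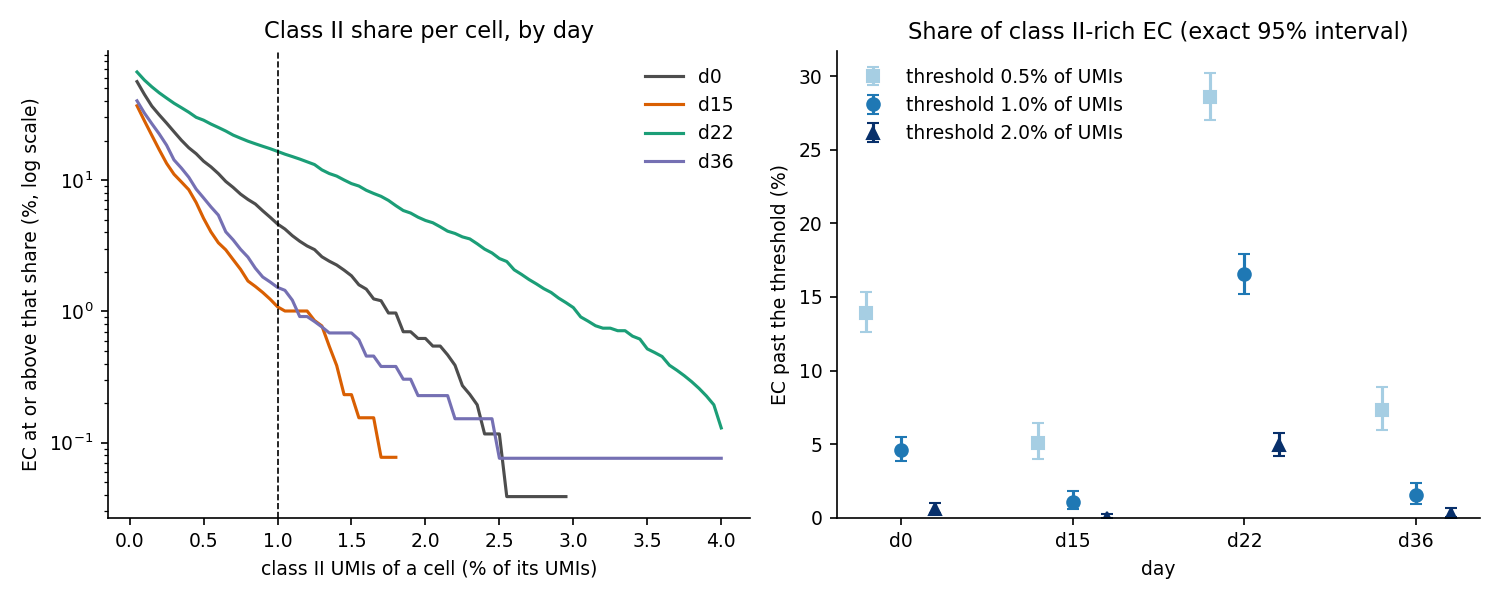
Left, the percent of EC at or above a given class II share of their UMIs (log scale), 1 line per day, with the dashed line at the 1.0% threshold. Right, the percent of EC past 3 thresholds per day with exact 95% intervals; d22 is highest at each of them and reaches 16.5% at 1.0%.

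The class II share had no gap at the threshold. Just inside it, between 1.0 and 1.1%, lay 71 cells, and just outside, between 0.9 and 1.0%, lay 87. Members had a median class II share of 1.54% and a highest of 6.12%, at d22. The median over all EC was 0.0756%, 0%, 0.163% and 0.00735% in the order of the days. Of all class II UMIs of EC, 30.6% at d0, 13.8% (d15), 64.2% (d22) and 18.1% (d36) lay in members.

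Cd74 was the main class II transcript of the members. It gave 58.3%, 49.0%, 60.4% and 65.0% of their class II UMIs at d0, d15, d22 and d36, against 43.2%, 27.0%, 38.9% and 29.3% in other EC. H2-Ab1 gave 19.6%, 27.7%, 17.7% and 15.3% in members, against 26.6%, 37.4%, 28.3% and 37.7% in other EC. The balance thus leaned to Cd74 in members at each of the 4 days. These proportions come from the genes of the rule and are given as a description.

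The members held endothelial genes by the rule that chose them, so the levels of those genes are a description. In counts per 1000000 UMIs of all genes (CPM), Cldn5, a tight junction claudin, had 4764, 5782, 5328 and 3635 CPM in members at d0, d15, d22 and d36. In other EC it had 4795, 5834, 5932 and 4938 CPM. The 10 endothelial markers, Cdh5, Pecam1 and Cldn5 among them, summed to 12909 to 14445 CPM in members and to 14199 to 16811 CPM in other EC. For this sum and below, CPM are per 1000000 UMIs without the 4 class II genes. A sum without the genes of the rule was not made. In the edgeR test described below, 0 of the 10 markers had a positive difference and 1 was called lower. At an unadjusted p under 0.05, 4 were lower. Their median log2 difference was -0.29, against -0.26 over all genes tested. Median UMIs per cell in members were 7645, 4637.5, 7602 and 3406.5, against 7861.5, 4750, 7822.5 and 4083 in other EC. The median mitochondrial share at d36 was 3.49% in members and 2.58% in other EC.

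Markers of professional class II cells were low in members of d0, d15 and d22. Ptprc (CD45), Itgax and Flt3 had no UMI in members of any day, and Cd79a and Ms4a1 had none outside d36. At d0, d15 and d22 the 10 pan-leukocyte markers summed to 34.2, 116 and 42.8 CPM in members. In other EC they summed to 59.9, 35.8 and 44.1 CPM, so members of d15 lay above other EC. Over the same days the 11 B cell markers summed to 0 to 26.9 CPM in members and 32.2 to 53.0 CPM in other EC. The 13 dendritic cell markers summed to 0 to 64.3 CPM in members and 52.6 to 78.8 CPM in other EC there. The 14 macrophage markers summed to 97.4, 57.9, 118 and 1182 CPM in members at d0, d15, d22 and d36, against 63.8, 71.8, 93.2 and 60.6 CPM in other EC, above them at d0, d22 and d36, and 10, 13, 8 and 10 of them were at 0 in members. At d36 the pan-leukocyte sum was 1053 CPM and the B cell sum 1816 CPM in members, against 44.1 and 41.5 CPM in other EC. At d36 2 of the 20 members took over 2% of their UMIs from another cell type's markers: one took 2.30% from B cell markers and 1.23% from pan-leukocyte markers, and the other took 17.5% from alveolar epithelial and 0.693% from macrophage markers. Without these cells the d36 sums in members were 55.7 CPM for pan-leukocyte, 83.5 CPM for macrophage, 0 for B cell and 0 for dendritic cell markers, and the d36 share was 1.37%. The shares per cell leave out Plac8, Ly6c2, Nr4a1, Fn1, Ace and Ctss, treated as genes that lung EC hold themselves. The CPM sums keep them where they are in a list. Of the 10 pan-leukocyte genes, 8, 9, 6 and 3 were at 0 in members of d0, d15, d22 and d36. At least 1 pan-leukocyte UMI was present in 82 members. Of all cells, 72 shared a barcode with a cell of another day (36 barcodes), and 3 of them were members. No doublet caller was run.

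Members were set against other EC of the same day by summing UMIs per day and cell group, which gave 8 sums, fitted with edgeR with day as a block and tested by quasi-likelihood with Benjamini-Hochberg adjustment at 0.05. The days differ in condition, so the error of this test comes from how much differences vary from day to day. Each gene alone has 3 residual degrees of freedom. The fit moderates the error across genes, and the small p-values below rest mainly on that shared error. A gene's own spread between days therefore enters its p-value little. Of 10755 genes tested, 5 were higher (0.0465%) and 87 lower (0.809%) in members. Without d0 28 genes were lower and without d22 26, while without d15 13 were higher. The median fitted log2 difference over all genes was -0.26, so values are to be read relative to it. Of the 5 genes higher, Sftpc, Sftpa1 and Sftpb are surfactant genes of alveolar cells, with 19164, 2977 and 2967 CPM in d36 members against 105, 7.58 and 4.12 CPM in other EC, and none of them was called when cells with 2% of another type's markers were left out. The other 2 were H2-DMa and H2-DMb1. Because the d15 and d36 members are few, 2 alternatives were also fitted. The fit with d0 and d22 alone was added after seeing the data and has 1 residual degree of freedom per gene. It called 121 genes higher and 282 lower of 12235 (0.989% and 2.3%), and its p-values, however small, cover d0 and d22 only. The 0.5% threshold called 62 higher and 206 lower of 11088 (0.559% and 1.86%).

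The peptide exchange factor of the class II pathway rose with the genes of the rule. H2-DMa had 409, 362, 568 and 344 CPM in members at d0, d15, d22 and d36, against 64.0, 41.8, 78.8 and 66.7 CPM in other EC. Its log2 difference was 2.58 ± 0.29 (SE, edgeR adjusted p = 6.38e-16). H2-DMb1 had 347, 521, 573 and 322 CPM in members, against 89.9, 55.5, 107 and 63.1 CPM in other EC. Its log2 difference was 2.28 ± 0.28 (edgeR adjusted p = 3.32e-13). For both genes every day's members lay above every day's other EC, which over all genes tested held for 1.34%.

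No other gene of the class II machinery passed the test. Of the 13 processing and loading genes 9 were tested, 2 rose, and the list's median log2 difference was 0.76. That median was -0.16 without cells with 2% of another type's markers, -0.45 without cells with a pan-leukocyte UMI, -0.29 without cells with an alveolar UMI and -0.36 without d22, while the same number of genes, 2, rose in each. H2-Oa, a chain of the H2-DM inhibitor, had no UMI in either group. H2-DMb2, another H2-DM beta chain gene near in sequence to H2-DMb1, did not pass the filter on low counts. It had 1.04, 14.5, 2.18 and 215 CPM in members, against 0.182, 0.311, 0.390 and 0.988 CPM in other EC. Its d36 value falls on the day of the 2 cells with other markers, whose part in it was not tested. Because H2-DMb1 and H2-DMb2 are alike, reads could be split between them. Ctss, the protease that trims the invariant chain in professional cells, had 0 CPM in members of d0, d15 and d22 and 43.0 CPM at d36, the day of the 2 cells with other markers, whose part in this value was not tested. The endosomal proteases Ctsl, Ctsb and Ctsd and the legumain gene Lgmn were not called, with log2 differences of -0.69, -0.35, -0.32 and -0.68, while Ctsl was lower in both alternatives (-0.49, edgeR adjusted p = 0.000665 with d0 and d22, and -0.54, adjusted p = 0.0105 at 0.5%).

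Ciita, the coactivator of the class II genes, was low throughout. It had 22.8, 0, 21.0 and 10.7 CPM in members at d0, d15, d22 and d36, against 6.29, 5.91, 5.33 and 4.45 CPM in other EC. Members were above other EC at d0, d22 and d36, where the value rests on 1 UMI, and at d15 the 14 members together held no Ciita UMI. The fitted difference was not called (log2 1.44 ± 0.95, edgeR adjusted p = 0.999), nor at the 0.5% threshold (1.44, adjusted p = 0.555), while with d0 and d22 alone it was 1.91 (adjusted p = 0.0109). edgeR called 0 of the 8 class II transcription genes (0 at an unadjusted p under 0.05, 0 with DESeq2), and their median difference was -0.25, against -0.26 over all genes.

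**Figure D2:**
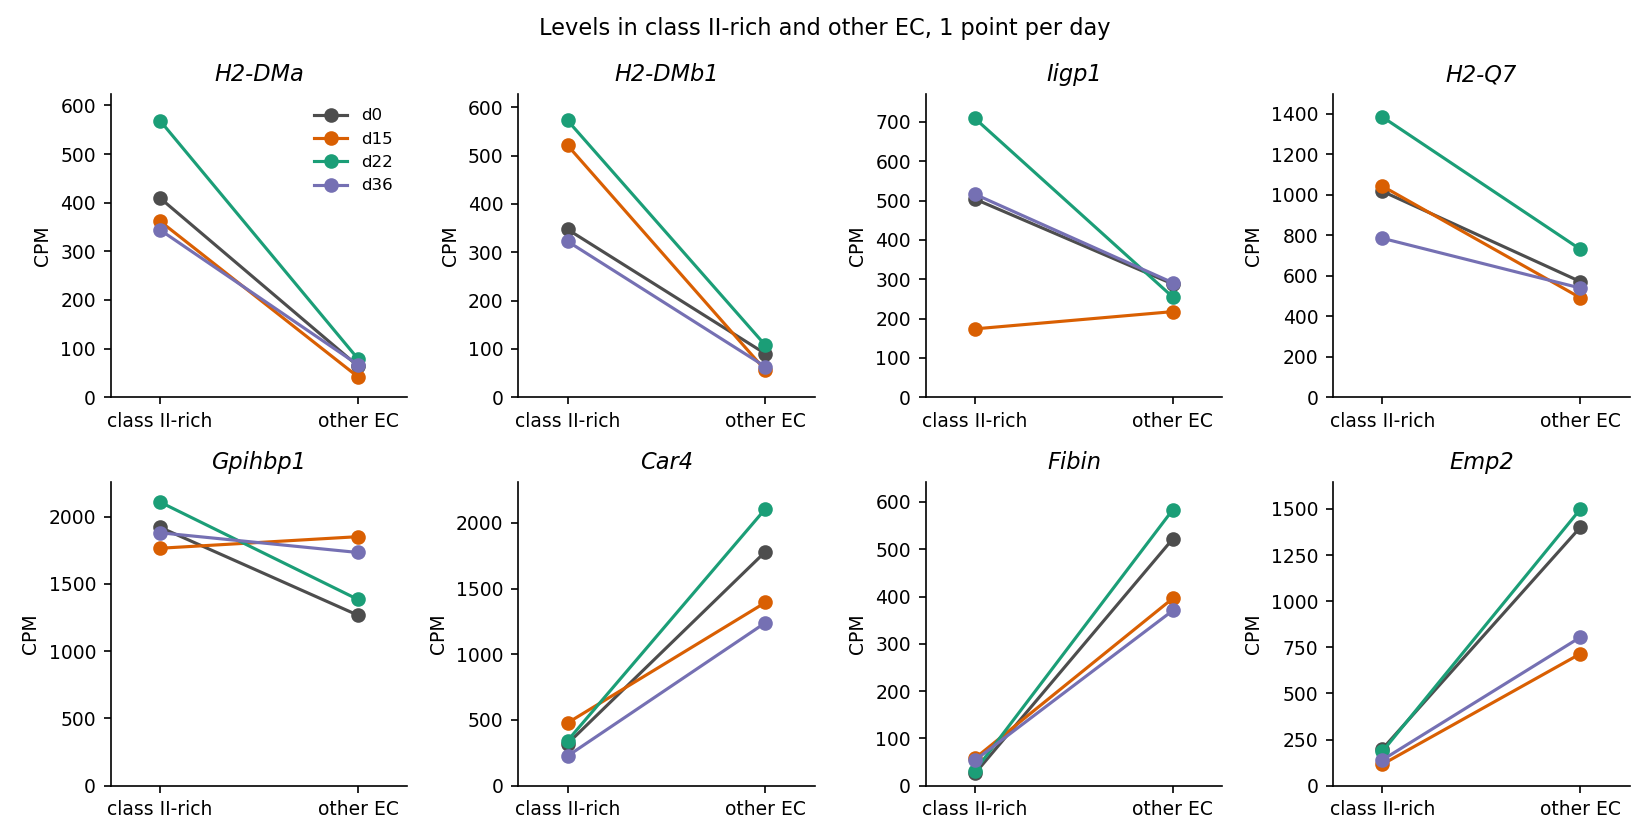
CPM of 8 genes in class II-rich EC (left of each panel) and other EC (right), 1 point per day joined by a line. H2-DMa and H2-DMb1 are above other EC at all 4 days and Car4, Fibin and Emp2 below, while Iigp1 and Gpihbp1 are below other EC at d15.

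Interferon-gamma response genes were mostly above other EC in members and did not pass the main test. Of 25 genes tested 20 had a positive difference and the list's median was 0.45, against -0.26 over all genes. The edgeR test called 0, with 4 at an unadjusted p under 0.05, and DESeq2 called 1, the tryptophan-degrading enzyme gene Ido1 (log2 2.49, adjusted p = 0.0365), with 8.29, 116, 42.3 and 75.2 CPM in members, against 8.02, 5.91, 9.76 and 5.27 CPM in other EC. Ido1 was about level at d0 and above other EC at the later days, and edgeR did not call it with d0 and d22 alone (log2 1.34, adjusted p = 0.0716) or at the 0.5% threshold (1.06, adjusted p = 0.638). With d0 and d22 alone 11 of 26 were higher and at the 0.5% threshold 7 of 25, with none lower in either. The immunity GTPase gene Iigp1 had 504, 174, 709 and 516 CPM in members, against 288, 218, 254 and 291 CPM in other EC. Members were above other EC at d0, d22 and d36 and below them at d15, and the difference was 0.63 ± 0.25 (edgeR adjusted p = 0.562), or 1.15 (adjusted p = 1.02e-23) with d0 and d22 alone and 0.89 (adjusted p = 0.00754) at the 0.5% threshold. The guanylate-binding protein gene Gbp2 had 291, 159, 435 and 548 CPM in members, against 177, 156, 190 and 223 CPM in other EC. Its difference was 0.72 ± 0.27 (edgeR adjusted p = 0.430), and 0.97 (adjusted p = 3.86e-13) with d0 and d22 alone and 0.98 (adjusted p = 9.76e-05) at the 0.5% threshold. The immunity GTPase gene Igtp had 177, 57.9, 304 and 365 CPM in members, against 110, 82.3, 130 and 156 CPM in other EC, again with d15 as the day below. The interferon-gamma receptor chain gene Ifngr1 had 707, 1404, 612 and 172 CPM in members, against 447, 503, 466 and 476 CPM in other EC, above them at d0, d15 and d22 and below at d36.

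Class I genes, which present peptides to CD8+ T cells, were also mostly above other EC without passing the main test. Of the 21 genes, 16 had a positive difference, the median was 0.17, and edgeR called 0 (5 at an unadjusted p under 0.05, 0 with DESeq2). With d0 and d22 alone 13 were higher, and at the 0.5% threshold 10. H2-Q7, a non-classical class I gene, had 1017, 1042, 1384 and 785 CPM in members, against 571, 491, 730.5 and 539 CPM in other EC. Each day's members lay above each day's other EC, with a log2 difference of 0.66 ± 0.21 (edgeR adjusted p = 0.116), or 0.87 (adjusted p = 2.35e-18) with d0 and d22 alone, 0.82 (adjusted p = 1.98e-05) at the 0.5% threshold and 0.70 (adjusted p = 0.0428) without cells with 2% of another type's markers. Reads of H2-Q7 and its near-identical neighbours, H2-Q6 among them, could be split between them. H2-K1, a classical class I chain, had 3133, 2620, 4091 and 3375 CPM in members and 2119, 2073, 2761 and 2224 CPM in other EC, a difference of 0.33 ± 0.17 (edgeR adjusted p = 0.999) that was 0.56 (adjusted p = 5.39e-11) with d0 and d22 alone and 0.49 (adjusted p = 0.00134) at the 0.5% threshold. The immunoproteasome subunit genes Psmb8 and Psmb9 differed by 0.41 and 0.42 in the main fit and were called in both alternatives. The type I interferon list had a median of 0.05 and 14 of 25 positive, and edgeR called 0 (1 at an unadjusted p under 0.05, 0 with DESeq2). With d0 and d22 alone 5 were higher and at the 0.5% threshold 2, with 22 of 25 positive in both.

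Genes for T cell costimulation were sparse. Cd80 and Cd86, the ligands of CD28, had no UMI in members at any day, and Cd86 had none in other EC either. Cd40 had 68.4 CPM at d0 and 68.7 CPM at d22 in members, against 44.0 and 55.3 CPM in other EC, and no UMI in members of d15 and d36. Cd274, which encodes PD-L1, had 9.33 and 14.0 CPM in members at d0 and d22, against 9.89 and 12.6 CPM in other EC. The costimulatory ligand gene Icosl had 0, 57.9, 3.14 and 32.2 CPM in members, from 0, 4, 13 and 3 UMIs. In other EC it had 3.24, 1.24, 1.13 and 0 CPM. Its log2 difference was 2.77 ± 0.87 (edgeR adjusted p = 0.125). It was 4.30 without d0 (edgeR adjusted p = 0.00674) and -0.050 with d0 and d22 alone. Icosl did not pass the filter on low counts once cells with a pan-leukocyte UMI were left out. The same held without cells with an alveolar UMI and without cells with 2% of another type's markers, so it was not tested there. Of 7 genes of the list tested, Cd47 alone passed: the ligand of the phagocyte receptor SIRPA had 778, 782, 882 and 462 CPM in members, against 1044, 1133, 1179 and 1026 CPM in other EC, a fall of 0.79 ± 0.20 in log2 (edgeR adjusted p = 0.0163, and 0.148 without d0, 0.173 without d22 and 0.365 without d36). Its difference was -0.43 (adjusted p = 0.000183) with d0 and d22 alone and -0.36 (adjusted p = 0.0322) at the 0.5% threshold, and it was not called without cells with a UMI in at least 2 of the aerocyte genes Car4, Ednrb, Fibin and Tbx2 (-0.38, adjusted p = 0.9998) or with DESeq2 (-0.69, adjusted p = 0.562).

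**Figure D3:**
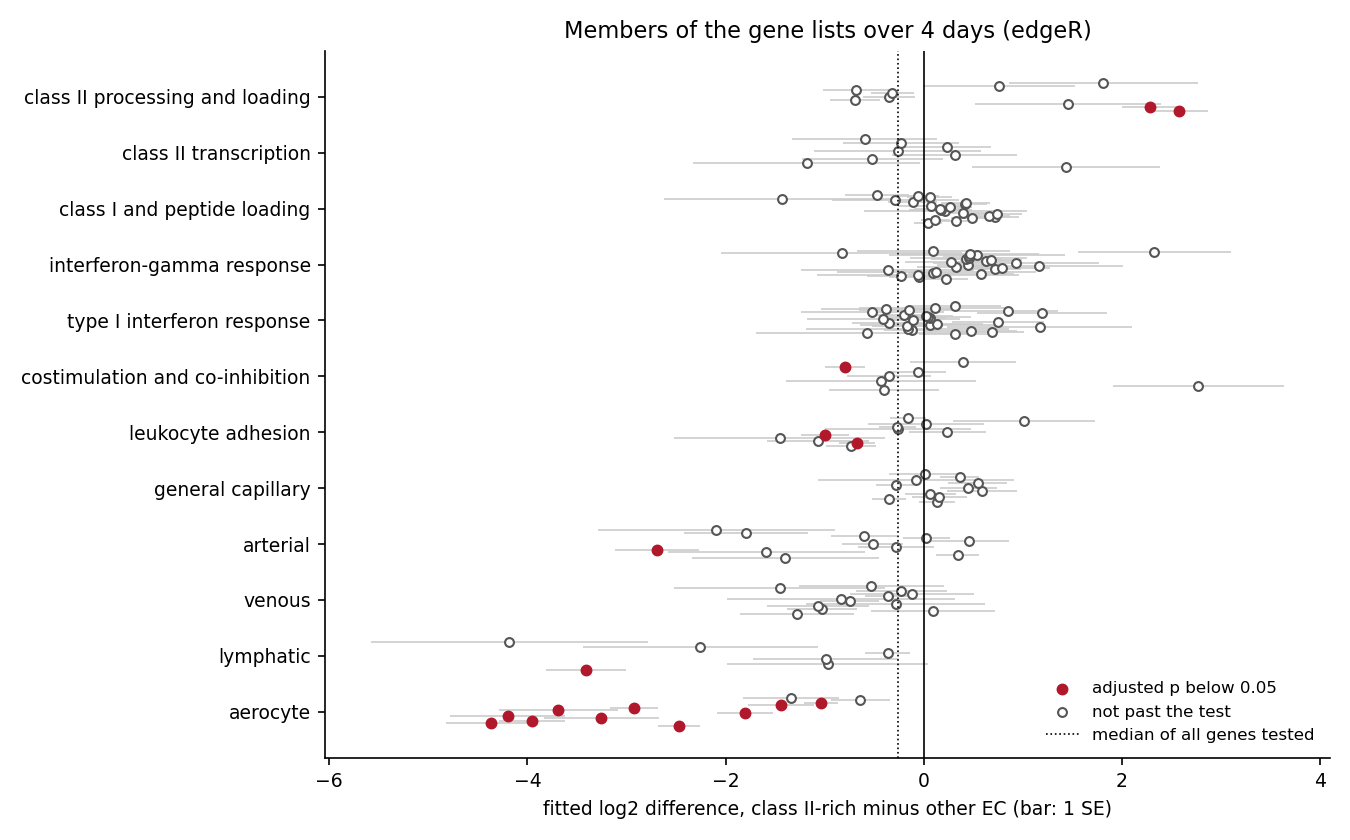
Fitted log2 difference (class II-rich minus other EC, with 1 SE) of each tested member of 12 gene lists. Red points passed an adjusted p of 0.05, open points did not, and the dotted line is the median of all genes tested; H2-DMa and H2-DMb1 stand to the right, 10 aerocyte genes to the left, and most interferon-gamma and class I genes lie right of the dotted line at -0.26 without passing.

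Genes of the aerocyte fell in members. The aerocyte is the large capillary cell of the alveolus specialised for gas exchange. Of 13 aerocyte genes 12 were tested, 12 had a negative difference, 10 were called lower, and the median log2 difference was -2.70, against -0.26 over all genes. Both alternatives called 12. Car4, a carbonic anhydrase on the capillary surface, had 319, 478, 342 and 226 CPM in members at d0, d15, d22 and d36, against 1780, 1394, 2107 and 1240 CPM in other EC. Every day's members lay below every day's other EC, as for 6.99% of all genes tested, and the log2 difference was -2.47 ± 0.21 (edgeR adjusted p = 5e-28). Ednrb, an endothelin receptor, had 14.5, 14.5, 12.8 and 0 CPM in members, against 246, 187, 275 and 174 CPM in other EC, a difference of -4.37 ± 0.45 (edgeR adjusted p = 2.77e-19). Fibin had 25.9, 57.9, 31.7 and 53.7 CPM in members, against 522, 396, 584 and 370 CPM in other EC, a difference of -3.95 ± 0.33 (edgeR adjusted p = 8.58e-30). Emp2, a tetraspan membrane protein gene, had 199, 116, 186 and 140 CPM in members, against 1400, 715, 1499 and 805 CPM in other EC. The sulfotransferase gene Chst1, the peptide ligand gene Apln, the VEGF receptor gene Kdr and the transcription factor gene Tbx2 fell, with log2 differences of -4.201, -3.69, -1.80 and -3.25. Kdr was also called from the VEGF list, with the VEGF co-receptor gene Nrp1, which had 629, 709, 591 and 430 CPM in members, against 1239, 919, 1095 and 763 CPM in other EC. The other called genes were Kitl and Cyp4b1, and Tbx3 and Lmo7 were not called. Car4, Ednrb, Fibin, Emp2, Chst1, Kdr and Cyp4b1 were called whichever day was left out, while Tbx2, Kitl and Nrp1 were not called without d0 or without d22, nor Apln without d22.

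Outside that list, Ccdc184, the integrin chain gene Itgb5, Tmeff2, Rprml and the homeobox gene Meox1 fell, with log2 differences of -4.95, -4.58, -4.50, -3.63 and -3.56, and none of them was called once cells with a UMI in at least 2 of Car4, Ednrb, Fibin and Tbx2 (aerocyte-marker cells) had been taken out of both groups. Itgb5 and Meox1 were also not called without d0 or without d22, Ccdc184 without d0, and Tmeff2 and Rprml without d22. Without the aerocyte-marker cells 4 genes were higher and 8 lower of 10457 (0.0765% lower), edgeR called 0 of the 12 aerocyte genes and their median was -0.58. That alternative was added after seeing the data, and since it takes out cells by aerocyte genes it lowers those genes in both groups by construction. H2-DMa and H2-DMb1 remained called, with log2 differences of 2.29 and 1.92 (edgeR adjusted p = 1.44e-09 and 1.41e-06). The haemoglobin gene Hba-a1 was also called lower, with 5.18 CPM in members and 208 CPM in other EC at d0 and at most 0.725 CPM in members of the other days, against 3.86 to 9.23 CPM in other EC. It was not called without the cells that carried 2% of another type's markers (log2 -1.41), nor without d0 or without d22.

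Aerocyte-marker cells were members less often than EC without these markers at d0 and d22, by intervals that do not overlap. At d0 12 of 695 were class II-rich (1.73%, exact interval 0.895 to 2.997%), against 107 of 1876 EC without these markers (5.70%, 4.70 to 6.85%). At d22 the shares were 41 of 759 (5.40%, 3.90 to 7.26%) against 469 of 2327 (20.2%, 18.5 to 21.8%), and at d36 0 of 243 (up to 1.51%) against 20 of 1070 (1.87%, 1.15 to 2.87%). At d15 they were 3 of 209 (1.44%, 0.297 to 4.14%) against 11 of 1082 (1.02%, 0.509 to 1.81%), with overlapping intervals. The aerocyte-marker cells were the deeper ones, with a median of 11353 UMIs against 7246.5 in cells without these markers at d0. The share was higher at d22 than at d0 in both kinds of cell. All these intervals cover counting error only, and no difference between days could be tested.

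General capillary genes had a mixed pattern. Of 11 tested edgeR called 0 in the main test (1 at an unadjusted p under 0.05, lower, and 0 with DESeq2), with a median of 0.13, while 8 were higher with d0 and d22 alone and 7 at the 0.5% threshold. Gpihbp1, which anchors lipoprotein lipase to the capillary wall, had 1921, 1766, 2109 and 1881 CPM in members, against 1268, 1852, 1385 and 1734 CPM in other EC. Members were well above other EC at d0 and d22 and close to them at d15 and d36. Sema3c had 1371, 1201, 1117 and 1612 CPM in members, against 785, 1120, 697 and 1085 CPM in other EC, above at all 4 days, as were 3.89% of all genes tested. Without the aerocyte-marker cells the list's median was -0.18 and edgeR called 0 of its 11 genes.

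Among markers of other vessel types a few fell. Of the arterial list 1 gene of 11 was called, the matrix protein gene Mgp, with 20.7, 28.9, 43.5 and 0 CPM in members, against 150.5, 218, 163 and 128 CPM in other EC (log2 -2.69 ± 0.43, edgeR adjusted p = 1.81e-07). Of the lymphatic list 1 of 6 was called, the chemokine gene Ccl21a, with 47.7, 0, 29.0 and 0 CPM in members, against 403, 349, 264 and 8.73 CPM in other EC (log2 -3.41 ± 0.41, edgeR adjusted p = 6.88e-14). The lipid carrier gene Fabp4 had 8.29, 14.5, 22.7 and 0 CPM in members, against 57.6, 196, 60.5 and 68.4 CPM in other EC (log2 -2.51 ± 0.55, edgeR adjusted p = 0.00128). Mgp, Ccl21a and Fabp4 were also called in both alternatives and without the aerocyte-marker cells, and Fabp4 was not called without d0. Of 12 venous genes edgeR called 0 (4 at an unadjusted p under 0.05, 0 with DESeq2), 0 with d0 and d22 alone and 1 at the 0.5% threshold, which was higher. Of 9 proliferation genes it called 0 (5 at an unadjusted p under 0.05, 0 with DESeq2), while 4 of 13 were lower with d0 and d22 alone and 2 of 9 at the 0.5% threshold. The small heat shock protein gene Hspb1 had 204, 72.4, 143 and 215 CPM in members, against 490, 347, 418 and 345 CPM in other EC (log2 -1.50 ± 0.27, edgeR adjusted p = 1.33e-05), and was called in both alternatives but not without the aerocyte-marker cells (-0.52, adjusted p = 0.9998). Among adhesion genes Icam2 and Cd34 fell by 0.67 ± 0.18 and 0.99 ± 0.24 in log2 (edgeR adjusted p = 0.0295 and 0.00683), and neither was called without the aerocyte-marker cells, without d0 or without d22, nor Icam2 without d15 or without d36.

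The H2-DM genes were higher at each step of a cell's class II share, already below the threshold, while the aerocyte list changed mainly in the first steps. The sum of H2-DMa and H2-DMb1 at d0 was 36.7 CPM in EC with no class II UMI, 104 CPM up to 0.25%, 331 CPM from 0.25 to 0.5%, 516 CPM from 0.5 to 1.0% and 756 CPM in members. At d22 it was 31.6, 99.3, 326, 624 and 1141 CPM over the same steps. The aerocyte list at d0 had 12819, 8179, 2996, 2926 and 2427 CPM, and at d22 14246, 10454, 3233, 2877 and 2939 CPM, so that the largest step down lay at 0.25% and the later steps differed little. The interferon-gamma list at d22 had 1996, 2406, 2897, 3375 and 4417 CPM, and at d0 1992, 2432, 2956, 3265 and 3532 CPM, while at d36 it had 2302, 2659, 3596, 4839 and 4503 CPM, with members below the step before. At d15 the H2-DM sum was 33.2, 103, 296, 416 and 883 CPM and at d36 36.7, 89.9, 376, 514 and 666 CPM, with 14 and 20 cells in the last step. Aerocyte-marker cells made up 42.1, 26.6, 16.5, 12.1 and 10.1% of the steps at d0 and 43.9, 32.9, 12.0, 6.99 and 8.04% at d22. The share of class II UMIs defines the steps, and their pattern is a description.

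**Figure D4:**
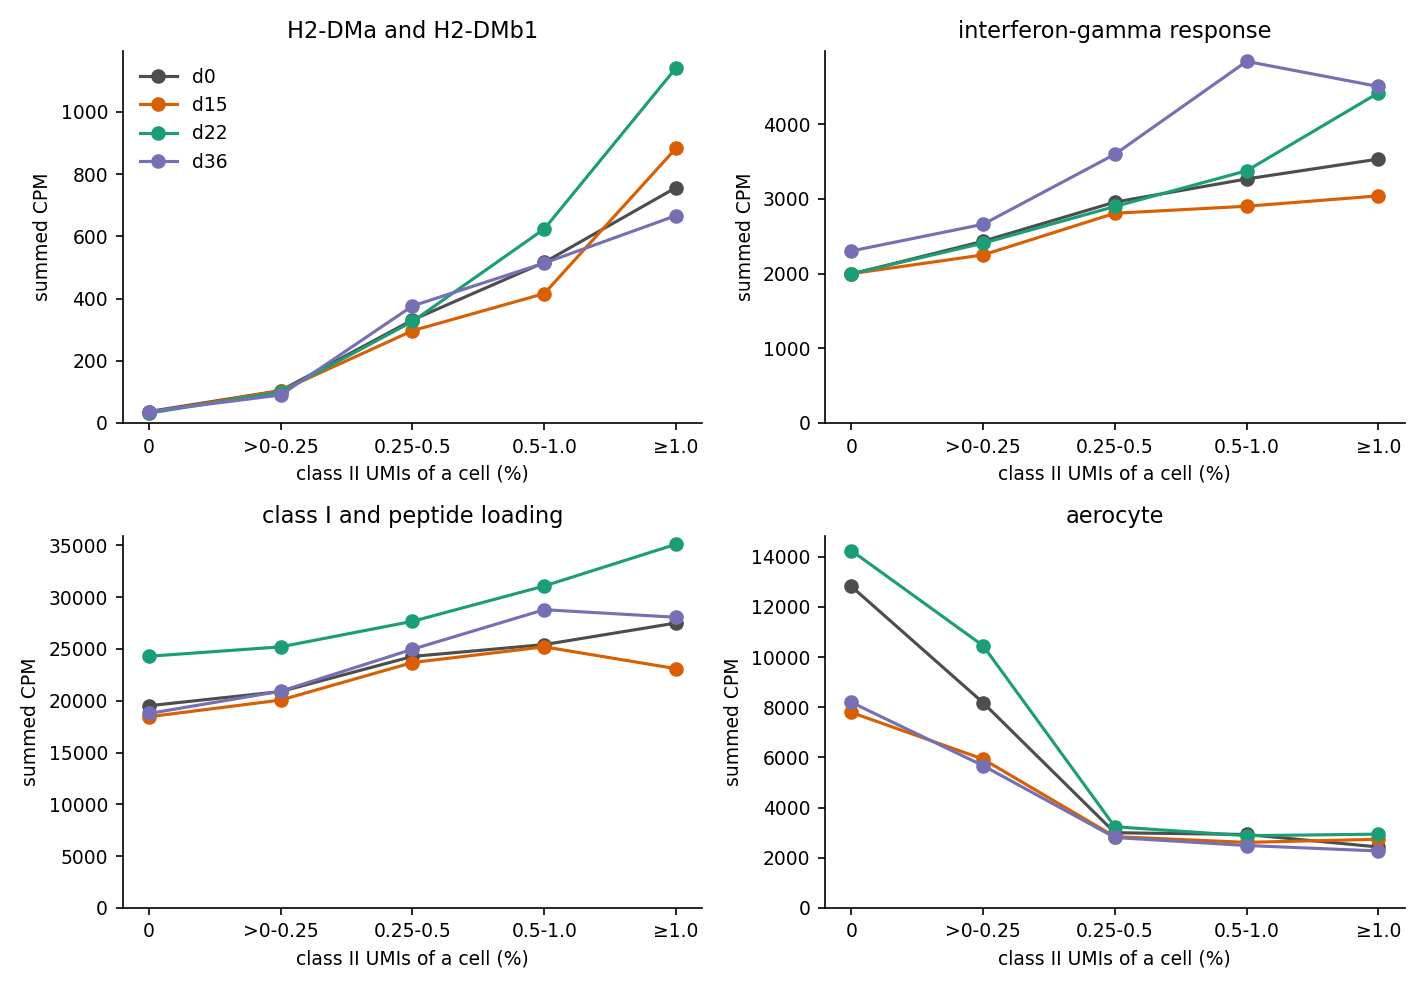
Summed CPM (class II genes left out) of 4 gene lists in EC sorted by the class II share of their UMIs, 1 line per day. H2-DM genes climb over all steps, the aerocyte list is low from 0.25% on, and the last step at d15 and d36 rests on 14 and 20 cells.

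Members after resection were also compared with members of wild-type mice, as ratios of CPM with counting intervals and no test. A gene was counted where the ratio was at least 1.5 either way, the interval left out 1, either day reached 50 CPM and both days together held 200 UMIs. At d22 266 genes were higher (7.29%) and 248 lower (6.8%) of 3647, against 4 (0.112%) and 57 (1.59%) of 3583 in other EC. The d0 members are 119 cells and the intervals leave out how cells differ from each other, so the counts in members and other EC are not of equal precision. At the 0.5% threshold the counts in members were 78 and 148. At d15 104 genes were higher (11.2%) and 174 lower (18.8%) of 926, and at d36 87 (9.18%) and 190 (20%) of 948. In other EC 151 (4.06%) and 82 (2.2%) of 3723 were past the rule at d15 and 145 (3.97%) and 119 (3.26%) of 3654 at d36. With TMM scaling these counts were 28 and 440 at d15 and 33 and 387 at d36, and no gene is named from them.

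Among genes with many cells behind them, H2-DMb1 had 573 CPM in d22 members and 347 CPM in d0 members, a ratio of 1.65 (95% interval 1.47 to 1.85), against 1.19 (1.12 to 1.27) in other EC. Tap1, which carries peptides to class I molecules, had 321 CPM in d22 members and 152 CPM in d0 members, a ratio of 2.11 (1.78 to 2.52), against 1.30 (1.24 to 1.37) in other EC. Igtp had a ratio of 1.72 (1.46 to 2.03) in members and 1.18 (1.11 to 1.24) in other EC, and Ifi47 1.56 (1.39 to 1.77) and 1.14 (1.098 to 1.185). Iigp1 had a ratio of 1.41 (1.28 to 1.55) in members and 0.885 (0.854 to 0.917) in other EC, below the size rule. Of the 14 interferon-gamma genes measured, 4 were higher and 0 lower. The difference between the ratios of members and other EC was not tested. Members of d22 also had a higher class II share than members of d0, with medians of 1.61% and 1.37%. The H2-DM and interferon-gamma sums rose with that share at both days, so the ratios do not compare cells of like class II share. The part of the share in these ratios was not tested.

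Other genes were lower in d22 members. Cyp1a1, a cytochrome induced through the aryl hydrocarbon receptor, had 53.7 CPM in d22 members and 2137 CPM in d0 members, a ratio of 0.0251 (0.0218 to 0.0289), and 58.7 CPM at d22 and 1173 CPM at d0 in other EC. Thbd, which encodes the anticoagulant receptor thrombomodulin, had 607 CPM in d22 members and 1352 CPM in d0 members, a ratio of 0.449 (0.420 to 0.481), against 0.536 (0.525 to 0.548) in other EC. Wfdc1 had a ratio of 0.468 (0.418 to 0.525) in members and 0.884 (0.845 to 0.925) in other EC. The largest ratios upward rest on few cells: Mfap4 had 219 UMIs in 9 of the 510 members of d22 and 2 UMIs at d0, a ratio of 25.5 (6.99 to 212) that was 0.644 at the 0.5% threshold. Il18bp, which encodes the binding protein of interleukin-18, had 87.0 CPM in d22 members and 20.7 CPM in d0 members, a ratio of 4.20 (2.68 to 6.96) with UMIs in 89 and 6 cells, and 1.85 at the 0.5% threshold.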

How the data were processed

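The authors sequenced sorted lung EC and deposited 1 table of UMI counts with 28692 gene symbols, 10850 of them without a UMI, and 9036 cells. Reads were processed with Cell Ranger 2.1.1 on mm10, per the submitters' processing notes, and no source used here gives the annotation release, the filter on cells or any removal of doublets. The 16 samples are 4 libraries at each of 4 days, and the cells were grouped by the day in their column names. No further filter on cells was applied.

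UMIs were summed per day and cell group without the 4 class II genes and fitted in R 4.3.3 with edgeR 4.0.16 (day as block, TMM, filterByExpr, quasi-likelihood test, Benjamini-Hochberg at 0.05). DESeq2 1.42.0 was an alternative. P-values of the main fit rest on 4 pooled days and on an error shared across genes. They set a difference against the spread between days, mostly that of all genes together, and not against the spread between mice. Those with d0 and d22 alone rest on these days only, with 1 residual degree of freedom per gene and the same sharing across genes. A small p-value there is not a result repeated over 4 days. On simulated data for this comparison, 10893 genes were tested. The fit called 90.72% of genes changed 3-fold there, 24.24% of genes changed 1.5-fold and 0.0187% of unchanged genes. The simulation gave every gene the same dispersion, which was set by hand and not estimated from the measured sums. These rates hold for that spread between days and are not the power of the measured comparison. Whether the measured differences spread alike from day to day was not tested. Intervals are exact 95% intervals (scipy 1.17.1) and cover counting error only.

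The rule for named genes took the 15 highest and 10 lowest called genes that reach 50 CPM in the mean of a cell group and lie on 1 side at all 4 days, every called member of the antigen presentation and interferon-gamma lists, and the 2 largest differences of each other list. Only 2 genes met the rule for the highest. Some genes are not reported here, while counts and sums over lists include them. Other list members, the surfactant genes and the genes of the comparison of days were chosen after their values were seen. Members and lists were chosen with earlier results of these data known. Promoters are RefSeq windows on GRCm38.p6, found for 7 of 10 class II genes looked up.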

Additional observations from a re-analysis of the deposited data

Results flagged for a closer look

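Outside the cells described, 26 cells passed the class II threshold of 1.0% and held a UMI in fewer than 2 of Cdh5, Pecam1 and Cldn5. In the order of the days they numbered 1, 1, 16 and 8, with a median of 4346.5 UMIs. Of these, 4 took 2% of their UMIs from markers of another cell type and 4 had a pan-leukocyte UMI.

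Cd47 at d36 and H2-K1 at d15 were flagged as apart from the other days. The log2 difference between class II-rich and other EC was -1.13 for Cd47 and 0.34 for H2-K1 there, the lowest of the 4 days. Each had a larger gap to the next day than the 95% critical value of Dixon's ratio for 4 values allows. Chance gives such a flag in about 1 in 20 groups, and the flags were not set against the number of genes screened. The Cd47 value at d36 rests on 43 UMIs in class II-rich EC.

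For 11 of the genes reported here the difference between class II-rich and other EC lay on opposite sides at 2 days by their counting intervals, and the difference between the days was not tested. Klf2, a shear-induced transcription factor gene, differed by 0.10 in log2 at d0, with 2811 CPM in class II-rich and 2627 CPM in other EC, while at d22 it had 2050 and 2589 CPM. Notch4, an endothelial Notch receptor gene, differed by 0.46 at d0, with 75.6 CPM in class II-rich and 54.8 CPM in other EC, and had 0 and 70.1 CPM at d15. Hsp90aa1, a chaperone gene, differed by 0.23 at d0, with 356 CPM in class II-rich and 304 CPM in other EC, and had 257 and 280 CPM at d22. Htra1, a secreted protease gene, differed by 2.38 at d36, with 43.0 CPM (4 UMIs) in class II-rich and 8.24 CPM in other EC, and had 0 and 6.15 CPM at d0.

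Of those whose levels are given above, Ifngr1 differed by 0.66 at d0 and was below other EC at d36 (16 UMIs in class II-rich), and Cd40 differed by 0.64 at d0 and had no UMI in class II-rich at d36, against 55.7 CPM in other EC. Lgmn differed by 0.15 at d22, with 192 CPM in class II-rich and 173 CPM in other EC, and had 115 and 170 CPM at d0. Tap1 differed by 0.29 at d0, with 152 CPM in class II-rich and 125 CPM in other EC, and had 0 and 121 CPM at d15. Wfdc1 differed by 1.40 at d0, with 479.8 CPM in class II-rich and 181 CPM in other EC, and had 43.0 CPM (4 UMIs) and 134 CPM at d36. Mfap4 differed by 4.17 at d15, with 188 CPM (13 UMIs) in class II-rich and 10.4 CPM in other EC, and had 2.07 and 29.0 CPM at d0. Sftpa1 differed by 8.62 at d36, the day of the cell with alveolar markers, and had 0 and 5.93 CPM at d0.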

How the results depend on the processing

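The order of d22, d0 and the other 2 days held under every setting tried. The shares in the order of the days were 13.9, 5.11, 28.6 and 7.31% at the 0.5% threshold and 0.622, 0, 4.93 and 0.228% at 2.0%, and 5.79% at d0 after thinning. Genes higher in class II-rich EC numbered 13 with DESeq2 size factors, 121 with d0 and d22 only, 62 at 0.5%, 0 at 2.0% (edgeR, 420 genes of either direction at an unadjusted p under 0.05) and 2 each with 3 of 3 endothelial genes, without pan-leukocyte UMIs and without alveolar UMIs. Genes lower numbered 282 with d0 and d22 only, 206 at 0.5%, 6 at 2.0%, 28 without alveolar UMIs, 8 without aerocyte-marker cells and 36 thinned. Leaving out 1 day gave 4 to 13 higher, 13 without d15, and 26 to 107 lower, 28 without d0 and 26 without d22. Against d0, the 0.5% threshold gave 360 higher and 389 lower at d15, 78 and 148 at d22 and 276 and 446 at d36, and TMM scaling 28 and 440 at d15 and 33 and 387 at d36. H2-DMa and H2-DMb1 were called in every setting but 2.0%. The causes were not tested. Differences that changed sign were, at 0.5%, Rfx5 0.038, Nlrc5 0.31, Selp 0.12, Ccl25 0.33, Egr2 -0.24, Notch4 0.024, Fabp5 0.041 and Cd40 0.41, at 2.0% Oasl1 -0.31, Relb -0.57, Nos3 -1.38, Aplnr -0.29, Gpihbp1 -0.050, Ifngr1 -0.15, Sema3c -0.24, Sftpa1 -0.92, Sftpb -1.18 and Sftpc -0.80, thinned Nos3 -0.90, Cd274 0.25 and Cd40 0.23, with d0 and d22 only Icosl -0.050, Notch4 0.15, Hsp90aa1 0.033, Cd274 0.049, Cd40 0.45 and Sftpa1 -0.76, without the day block Cd274 0.049 and Cd40 0.14, with 3 of 3 endothelial genes Sftpa1 -1.44 and Sftpc -0.22, without pan-leukocyte UMIs Gpihbp1 -0.020, Sftpa1 -1.38, Sftpb -0.043 and Sftpc -0.48, without cells with 2% of other markers Sftpa1 -1.32, Sftpb -0.25 and Sftpc -0.19, without aerocyte-marker cells Cd274 0.089, Cd34 0.044, Gpihbp1 -0.18, Ifngr1 -0.054 and Tbx3 0.21, and with 1 day left out Cd40 (-1.63 to 0.17, positive without d15 or d36), Gpihbp1 (-0.040 to 0.34, negative without d0 or d22), Ifngr1 (-0.016 to 0.67, negative without d15), Sftpa1 (-1.03 to 3.40), Sftpb (-0.063 to 4.31) and Sftpc (-0.036 to 2.04), these last 3 negative without d36. Of these, Cd34, Sftpa1, Sftpb and Sftpc were called with all days, and no sign-changed value was. Of the other values, 1120 kept their direction and side of the threshold, 61 passed it and 104 no longer did. No paired analysis was possible because the columns carry no library number; the fit pairs only the cell groups of a day. Depth limits d15 and d36, where 14 and 20 cells make up the class II-rich sums.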
